A study of Mus musculus with 24 samples.

Results

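Perk loss was followed in tunicamycin-treated mouse astrocytes by setting 3 libraries of Perk KO astrocytes given tunicamycin (TM) against 3 libraries of WT astrocytes given TM. These are 6 of the 24 libraries of the series, taken by their labels, and all 25018 genes listed for them were considered. A mean of at least 10 reads over the 6 libraries was reached by 14927 genes, which were tested. All cells, in both genotypes, came from mice with loxP sites in both copies of Perk (Eif2ak3) and were transduced in vitro with a lentivirus. In Perk KO cells the virus carried active Cre recombinase, which removes DNA between loxP sites, and in WT cells an inactive ΔCre, so WT here means floxed cells that received a virus without recombination. TM was given at 5 µg/mL for 24 hours on day in vitro 14, per the labels (20 to 24 hours in the series text), and control cells received the solvent DMSO. Beside the 2 groups compared, 3 Perk KO and 3 WT control astrocyte libraries, and 3 Perk KO and 3 WT libraries of TM-treated neurons made with the same virus pair, were used. Total RNA was sequenced. Titles number the 3 libraries of a group as biological replicates but do not name the animals or cultures behind them, so p-values measure how these libraries vary, which may in part be technical.

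PERK is a kinase of the endoplasmic reticulum (ER) membrane. TM blocks N-linked glycosylation, unfolded proteins build up in the ER, and PERK then phosphorylates the translation factor eIF2, which lowers general protein synthesis and allows the transcription factor ATF4 to be translated. ATF4 and its target CHOP (Ddit3) switch on genes for amino acid synthesis and uptake, tRNA charging and feedback on eIF2, a programme known as the integrated stress response. Parallel branches of the unfolded protein response start from the sensors IRE1 (Ern1), which splices Xbp1 mRNA, and ATF6, and are best known for ER chaperones and ER-associated degradation. Astrocytes are the glia that take up glutamate, make glutamine and couple to each other through connexins.

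Promoter bases of 5 genes described below are printed because they carry the short motifs through which the branches are known to act. They are from RefSeq on GRCm38.p6, 100 bases 5′ to 3′ on the strand of the gene, with the motif in capitals. A CARE-type element, TGATGNAA, is read by ATF4 with its partners, and lies on the opposite strand in Chac1, on the gene's strand in Asns, and once on each strand in Slc7a11. Its first base lies 193 bases before the start of Chac1, 23 before that of Asns, and 66 and 47 before that of Slc7a11. The windows are chr2:119351003-119351102 (plus strand) for Chac1, chr6:7693210-7693309 (minus strand) for Asns and chr3:50443617-50443716 (minus strand) for Slc7a11.
Chac1: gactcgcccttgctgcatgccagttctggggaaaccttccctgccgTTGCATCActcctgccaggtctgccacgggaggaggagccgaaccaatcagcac
Asns: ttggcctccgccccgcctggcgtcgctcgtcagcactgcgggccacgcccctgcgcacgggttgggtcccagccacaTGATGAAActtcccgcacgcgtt
Slc7a11: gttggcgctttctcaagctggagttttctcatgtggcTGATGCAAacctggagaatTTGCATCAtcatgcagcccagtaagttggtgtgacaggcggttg

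The ER stress element (ERSE), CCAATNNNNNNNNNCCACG, is bound by ATF6 with NF-Y. It begins 65 bases before the start of Hspa5 on the gene's strand (chr2:34771984-34772083, plus strand) and 126 bases before that of Creld2 on the opposite strand (chr15:88819479-88819578, plus strand). None of the 5 printed stretches held both motifs.
Hspa5: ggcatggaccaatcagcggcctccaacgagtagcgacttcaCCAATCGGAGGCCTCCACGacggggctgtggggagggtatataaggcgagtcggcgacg
Creld2: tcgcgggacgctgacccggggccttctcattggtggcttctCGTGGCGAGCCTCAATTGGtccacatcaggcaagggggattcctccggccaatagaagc

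Both strands of the 250 bases before each start were searched in 27025 genes with a window. The CARE-type letters stood in 3.91% of all genes, in 5 of 20 PERK-ATF4-CHOP targets with a window (25%), in 3 of 14 amino acid synthesis genes (21.4%), in 3 of 13 aminoacyl-tRNA synthetases (23.1%) and in 1 of 9 amino acid transporters (11.1%). CARE-type letters also stood in 2 of 22 ER chaperones (9.09%) and in 1 of 15 degradation genes (6.67%), which was Herpud1. The ERSE letters stood in 0.13% of all genes, in 8 of 22 ER chaperones (36.4%) and in 2 of 15 degradation genes (13.3%). Neither stood in any of 18 astrocyte marker genes with a window. A match describes letters only, and a gene without one may hold a site elsewhere.

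Reads per library were 17.2 to 19.8 M in the 6 libraries compared and 17.2 to 25.9 M in all 18 used. Among the 6, replicate 1 of TM-treated WT stood furthest from the others of its group, with a median absolute log2 difference over genes of 0.234 against 0.118 to 0.18 for the rest. Mitochondrially encoded genes took 1.98 to 2.78% of reads in TM-treated Perk KO and 0.879 to 1.67% in TM-treated WT, and ribosomal protein genes took 2.02 to 2.2% in TM-treated Perk KO and 2.87 to 3.52% in TM-treated WT. The general astrocyte marker Aldh1l1 was present, at 331 to 429 CPM (counts per M reads, TMM-normalised) in control Perk KO and 315 to 337 CPM in control WT. Of 14 neuron markers 10 passed the filter, while Rbfox3, Snap25, Nefl and Dcx were too low to be tested, and the 14 summed to 382 to 414 CPM in control Perk KO and 317 to 364 CPM in control WT. The ependymal regulator Foxj1 averaged 627 CPM in control Perk KO and 574 CPM in control WT, a transcript typical of ciliated cells.

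The targeted gene was low in every Perk KO library. Eif2ak3 (ENSMUSG00000031668, chr6:70844515-70905245, GRCm38, plus strand) had 11.3, 15.7 and 13.8 CPM in TM-treated Perk KO astrocytes, against 105, 86.6 and 74.7 CPM in TM-treated WT. The groups lay far apart, and the Perk KO mean was 15.3% of the WT mean (log2 difference −2.66 ± 0.17 SE, n = 3 against 3, edgeR quasi-likelihood adjusted p = 8.58e-06). In control astrocytes it had 5.97, 7.62 and 6.76 CPM in Perk KO against 25.4, 28.4 and 25.4 CPM in WT (log2 −1.94, edgeR adjusted p = 0.00261). Counts cover the whole gene, and reads from the deleted part were not separated from the rest here.

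Perk loss was accompanied by a change in most of the measured transcriptome of TM-treated astrocytes. At an edgeR adjusted p under 0.05, 9456 of 14927 genes differed (63.3%), with 4797 higher (32.1%) and 4659 lower (31.2%) in Perk KO. Beyond a 2-fold difference 3028 were higher (20.3%) and 1731 lower (11.6%), and beyond 16-fold 143 were higher and 23 lower. The libraries of the 2 genotypes did not overlap in CPM for 69.7% of genes, 33.9% with Perk KO higher and 35.9% with it lower. The median log2 difference over all genes tested was 0.01. The authors' deposited table has 9543 genes past the same threshold, of which 9037 were called in both and 0 with opposite signs. With such a background, the counts of the gene groups below are read against 32.1% higher and 31.2% lower. The groups were chosen with earlier results of these data known, so this reading is descriptive only.

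Targets of PERK, ATF4 and CHOP were far lower in TM-treated Perk KO than in TM-treated WT. Of 22 genes tested, 19 fell, 1 rose and 2 did not pass, with a median log2 difference of −2.34. Their summed level was 1740 to 2710 CPM in Perk KO and 8850 to 10200 CPM in WT under TM. Atf4 mRNA itself had 174, 273 and 307 CPM in Perk KO against 1130, 1240 and 1240 CPM in WT (log2 −2.22 ± 0.20, edgeR adjusted p = 3.5e-05). Ddit3, which encodes the stress transcription factor CHOP, had 137, 205 and 260 CPM in Perk KO against 1540, 1180 and 1180 CPM in WT (log2 −2.66 ± 0.23, edgeR adjusted p = 3.17e-05). For both genes every Perk KO library lay below every WT library by a wide margin.

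Feedback and effector genes of the pathway fell as well. Trib3, a pseudokinase that binds ATF4 and AKT, had 26.6, 38.1 and 44.4 CPM in Perk KO against 253, 250 and 247 CPM in WT. Chac1, whose enzyme breaks down glutathione and whose CARE-type element is printed above, had 40.1, 73.7 and 77.3 CPM in Perk KO against 307, 409 and 444 CPM in WT. Their log2 differences were −2.74 ± 0.18 for Trib3 and −2.56 ± 0.25 for Chac1. Ppp1r15a (GADD34), the inducible subunit that directs a phosphatase to eIF2, had 113, 205 and 236 CPM in Perk KO against 1130, 1360 and 1500 CPM in WT. Ero1l, an oxidase of ER protein disulfides, had 88.3, 120 and 124 CPM in Perk KO and 829, 875 and 883 CPM in WT (log2 −2.92 ± 0.15). Stc2, a secreted glycoprotein, and Vldlr, a lipoprotein receptor, fell by 2.79 and 1.84 on the log2 scale. The single member that rose was Bbc3 (PUMA), a pro-apoptotic BCL2 family gene, with 61.9, 62.8 and 67.4 CPM in Perk KO against 43.3, 50.8 and 54.1 CPM in WT (log2 0.41 ± 0.11, edgeR adjusted p = 0.0117), and it no longer passed after a correction for GC content (adjusted p = 0.15).

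**Figure D1:**
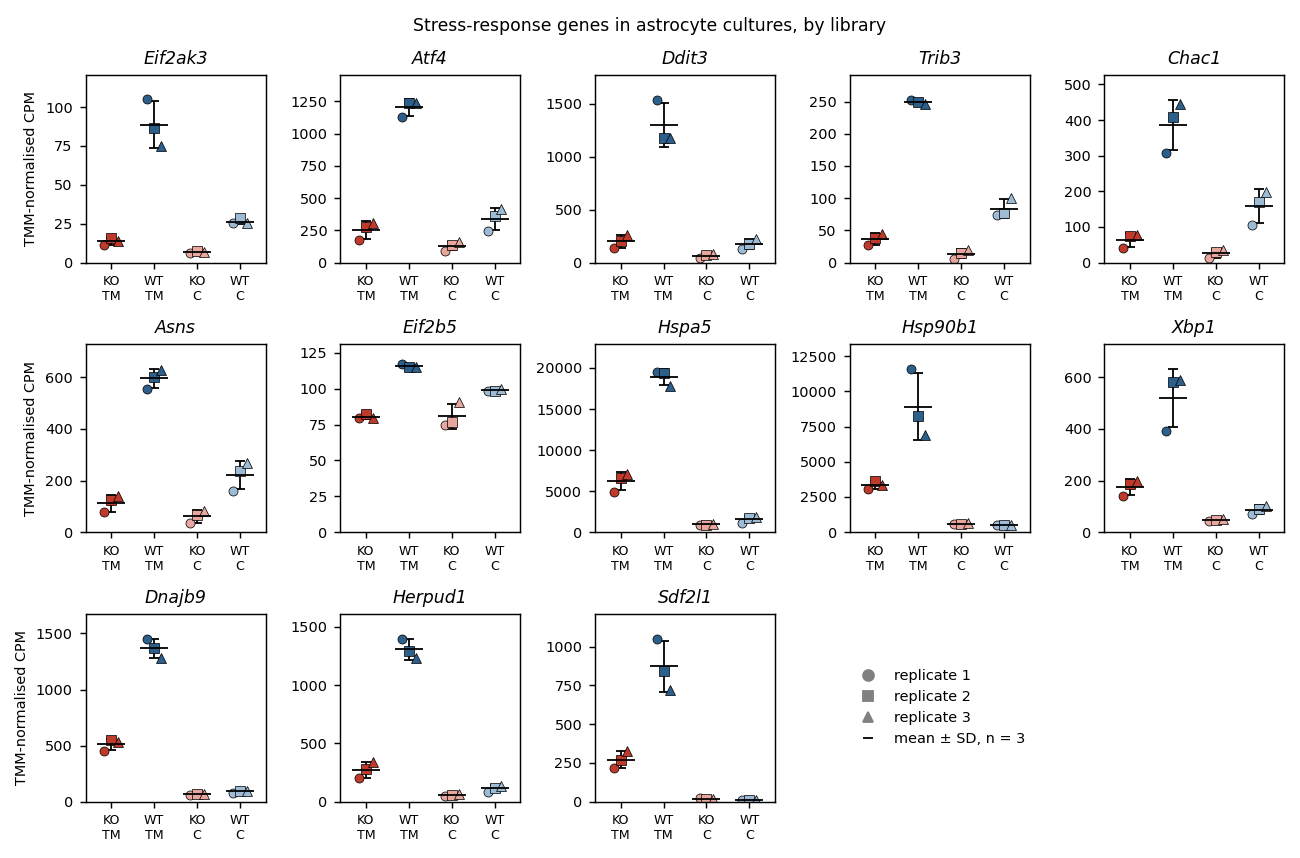
Level of 13 stress genes in CPM (linear axis from 0) in each astrocyte library, with TM-treated Perk KO, TM-treated WT, control Perk KO and control WT from left to right in each panel, markers by replicate number, and mean ± SD (n = 3). Under TM the Perk KO libraries lie below the WT libraries in each of the 13 panels.

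Genes that make, import and charge amino acids fell together. Of 16 amino acid synthesis and one-carbon enzymes, 14 were lower and 2 higher in TM-treated Perk KO than in TM-treated WT (median log2 −2.31). Asns, the asparagine synthetase, had 76.2, 123 and 139 CPM in Perk KO against 556, 602 and 629 CPM in WT (log2 −2.36 ± 0.21). Psph, the last enzyme of serine synthesis, had 50, 58.4 and 62.3 CPM in Perk KO against 360, 324 and 323 CPM in WT (log2 −2.52 ± 0.12, edgeR adjusted p = 3.17e-06). Aldh1l2, a mitochondrial folate enzyme, was the most reduced of the list, with 26.9, 29.7 and 33.1 CPM in Perk KO and 547, 381 and 336 CPM in WT (log2 −3.78 ± 0.20). Phgdh, which starts serine synthesis, and Aldh18a1, which starts proline synthesis, fell by 1.68 and 2.30 on the log2 scale. The 2 that rose were Cbs of transsulfuration (log2 1.35 ± 0.28) and Mthfd1, a cytosolic folate enzyme (log2 0.49 ± 0.12).

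Of 12 amino acid transporters tested of 13 listed, 10 fell and 1 rose (median log2 −1.92). Slc7a11, the cystine-glutamate exchanger subunit xCT with paired CARE-type elements, had 59.8, 97.6 and 75.2 CPM in TM-treated Perk KO against 562, 718 and 743 CPM in TM-treated WT (log2 −3.08 ± 0.20, edgeR adjusted p = 8.89e-06). Its Perk KO mean was 11.5% of the WT mean. Slc6a9, a glycine transporter, Slc7a1, a carrier of cationic amino acids, and Slc1a5, a carrier of neutral ones, fell by 2.86, 2.55 and 2.42 on the log2 scale. The riser was the lysosomal carrier Slc36a4 (log2 0.67 ± 0.19, edgeR adjusted p = 0.0133), which missed the threshold without replicate 2 of either group (adjusted p = 0.0502 without the Perk KO library and 0.0522 without the WT library).

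The cytosolic aminoacyl-tRNA synthetases, which load amino acids onto tRNAs, fell almost as a class. Of 20 genes 19 were lower and 0 higher in TM-treated Perk KO (median log2 −1.77), and their summed level was 2460 to 3190 CPM there against 9560 to 11000 CPM in TM-treated WT. Nars, for asparagine, had 280, 375 and 371 CPM in Perk KO against 1410, 1750 and 1740 CPM in WT (log2 −2.22 ± 0.15). Eprs, the bifunctional enzyme for glutamate and proline, had 260, 346 and 303 CPM in Perk KO against 1360, 1400 and 1270 CPM in WT (log2 −2.11 ± 0.13). Wars and Lars, for tryptophan and leucine, fell by 2.05 and 1.96 on the log2 scale.

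Transcripts of the machinery on which PERK acts were lower as well. Of 8 genes for eIF2 and its exchange factor eIF2B, 7 fell and 0 rose (median log2 −0.74). Eif2s2, the beta subunit of eIF2, had 155, 211 and 194 CPM in TM-treated Perk KO against 619, 659 and 778 CPM in TM-treated WT (log2 −1.84 ± 0.15). Eif2s1, the alpha subunit that the kinases phosphorylate, had 91.1, 110 and 112 CPM in Perk KO against 250, 300 and 334 CPM in WT (log2 −1.46 ± 0.14). Among eIF2B genes Eif2b3 fell by 1.90 and Eif2b1 by 0.88 on the log2 scale, and Eif2b5, the catalytic subunit, had 79.8, 82.5 and 79.5 CPM in Perk KO against 117, 115 and 115 CPM in WT (log2 −0.48 ± 0.09, edgeR adjusted p = 0.00145). The fall in Eif2b5 was small beside that of the targets, and its 2 groups did not overlap.

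The other eIF2 kinases showed no rise in mRNA. Of 6 genes for eIF2 kinases and eIF2 phosphatase subunits, 3 fell and 0 rose, and Eif2ak3 and Ppp1r15a were 2 of the 3. The third was Ppp1r15b (CReP), the constitutive phosphatase subunit, with 86.6, 96.3 and 80.5 CPM in TM-treated Perk KO against 162, 271 and 269 CPM in TM-treated WT (log2 −1.37 ± 0.20). Eif2ak4 (GCN2), the sensor of uncharged tRNA, had 18.6, 22.5 and 20.6 CPM in Perk KO against 22.5, 28.7 and 26.4 CPM in WT (log2 −0.29 ± 0.14). Its edgeR adjusted p was 0.094, and 0.0447 with the replicate number as a block.

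Transcripts of the other branches of the unfolded protein response were also lower in TM-treated Perk KO astrocytes. These are mRNA levels, and the activity of the sensors was not measured. Of 10 sensors and transcription factors of the response 7 fell and 1 rose (median log2 −0.80). Ern1 (IRE1) had 25, 27 and 29.7 CPM in Perk KO against 86.6, 109 and 103 CPM in WT (log2 −1.83 ± 0.12). Atf6 had 123, 155 and 147 CPM in Perk KO against 531, 596 and 499 CPM in WT (log2 −1.90 ± 0.12). Xbp1, whose spliced and unspliced forms are summed in these counts, had 141, 186 and 200 CPM in Perk KO against 392, 583 and 588 CPM in WT (log2 −1.53 ± 0.19). Dnajb9 (ERdj4), a cochaperone known as an Xbp1 target, had 455, 549 and 534 CPM in Perk KO against 1450, 1370 and 1280 CPM in WT (log2 −1.37 ± 0.12). Creb3, a membrane-bound transcription factor, was the one that rose (log2 0.47 ± 0.09).

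Under TM, ER chaperones and folding enzymes made up a smaller part of the RNA in Perk KO than in WT. Of 25 genes 16 fell and 2 rose (median log2 −0.67), and their summed level under TM was 21100 to 25400 CPM in Perk KO and 48100 to 67800 CPM in WT. Hspa5 (BiP), the main ER Hsp70 chaperone and the gene with the ERSE printed above, had 4950, 6610 and 7040 CPM in Perk KO against 19500, 19400 and 17800 CPM in WT (log2 −1.57 ± 0.16, edgeR adjusted p = 6.16e-05). Hsp90b1 (GRP94), the ER Hsp90, had 3070, 3610 and 3370 CPM in Perk KO against 11600, 8260 and 6930 CPM in WT (log2 −1.37 ± 0.19). Creld2, a secreted disulfide isomerase, had 203, 254 and 327 CPM in Perk KO against 1720, 1230 and 1100 CPM in WT (log2 −2.33 ± 0.22). Sdf2l1, a partner of BiP, had 218, 266 and 326 CPM in Perk KO against 1050, 845 and 719 CPM in WT (log2 −1.65), and Pdia4 and Hyou1 fell by 1.96 and 1.88 on the log2 scale. In WT the highest level of Hsp90b1, Creld2, Sdf2l1, Pdia4 and Hyou1 was in replicate 1, the library that stood furthest from its group. Sil1, a nucleotide exchange factor for BiP, rose (log2 0.98 ± 0.11), as did the prolyl isomerase Fkbp2 (log2 0.49 ± 0.16, edgeR adjusted p = 0.0278, 0.27 with the GC correction, and 0.0516 to 0.106 without any single library except replicate 1 of WT).

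Genes of ER-associated degradation and of traffic out of the ER moved the same way, though fewer members of the traffic list did. Of 18 degradation genes 13 fell and 1 rose (median log2 −0.61). Herpud1, a ubiquitin-like subunit of the degradation complex, had 205, 278 and 342 CPM in TM-treated Perk KO against 1400, 1290 and 1230 CPM in TM-treated WT (log2 −2.21 ± 0.18). Derl3, a channel-forming derlin, had 13.9, 16.8 and 21.8 CPM in Perk KO against 182, 110 and 93 CPM in WT (log2 −2.83 ± 0.27). Sel1l, the adaptor of the HRD1 ligase, and Edem1, a mannosidase-like lectin, fell by 1.93 and 1.56 on the log2 scale, and the lectin Erlec1 rose (log2 0.48 ± 0.11). Of 25 genes of translocation and ER to Golgi transport 12 fell and 1 rose (median log2 −0.40), among them Mcfd2, a cargo receptor subunit (log2 −1.43 ± 0.13), and the COPII coat genes Sec31a and Sec24d (log2 −1.08 ± 0.11 and −1.03 ± 0.10). The riser Sec62, of the translocon, had a log2 difference of 0.37 ± 0.11 and missed the threshold without replicate 1 of Perk KO (adjusted p = 0.0586), replicate 2 of Perk KO (0.0584), replicate 2 of WT (0.0615) or replicate 3 of WT (0.064).

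The pathway that TM blocks gave no common direction. Of 21 genes of N-glycan precursor synthesis and transfer 8 fell and 4 rose (median log2 −0.10). Gfpt1, the entry enzyme of hexosamine synthesis, had 202, 214 and 186 CPM in TM-treated Perk KO against 788, 628 and 498 CPM in TM-treated WT (log2 −1.63 ± 0.17). Pgm3 and Alg12 fell by 1.01 and 0.83 on the log2 scale, while Alg1 and Alg14, of the early steps, and Dad1, of the oligosaccharyltransferase, rose (log2 0.68 ± 0.12, 0.64 ± 0.14 and 0.59 ± 0.12). Without replicate 1 of WT the number that rose was 7.

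**Figure D2:**
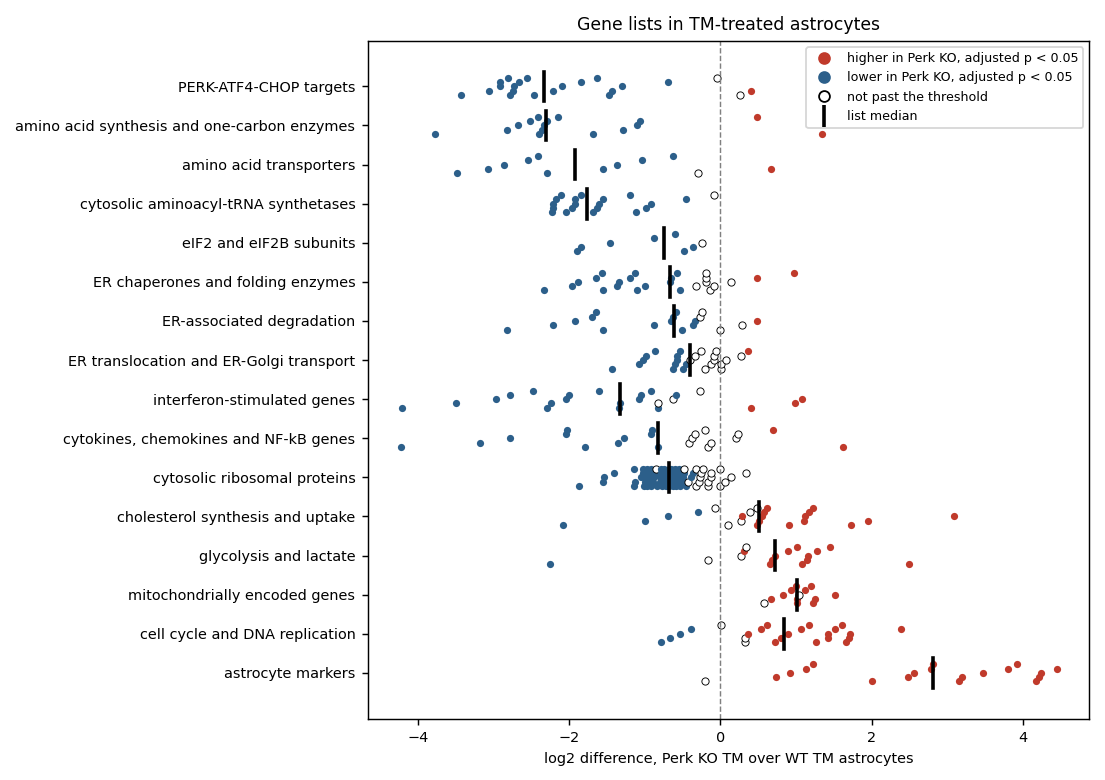
Log2 difference, TM-treated Perk KO over TM-treated WT, of every tested member of 16 gene lists (dots, n = 3 libraries a group) with the median of each list as a line. Filled dots passed an adjusted p under 0.05, and open dots did not. The medians of the lists for the PERK pathway, amino acid metabolism and tRNA charging lie between −2.34 and −1.77, and that of the astrocyte markers lies at 2.81.

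Astrocyte marker genes were far higher in TM-treated Perk KO than in TM-treated WT. Of 22 markers 19 were tested, 18 rose and 0 fell (median log2 2.81), while Gjb6, Cldn10 and Slc7a10 were too low for the test. Their summed level was 4940 to 5910 CPM in TM-treated Perk KO and 926 to 1090 CPM in TM-treated WT, and in controls it was 6380 to 8080 CPM in Perk KO and 4190 to 6350 CPM in WT. Aldh1l1, a folate enzyme used as a general astrocyte marker, had 344, 314 and 363 CPM in TM-treated Perk KO against 18.8, 17.5 and 19.9 CPM in TM-treated WT (log2 4.22 ± 0.12, edgeR adjusted p = 1.05e-06). The Perk KO libraries under TM lay near the 315 to 429 CPM of the control libraries, and the WT libraries under TM lay far below. Ndrg2 had 155, 124 and 142 CPM in Perk KO against 8.65, 5.3 and 5.84 CPM in WT (log2 4.45 ± 0.20). Glul, the glutamine synthetase, had 484, 502 and 576 CPM in Perk KO against 52.7, 58.7 and 63.8 CPM in WT (log2 3.20 ± 0.13). Acsbg1, an acyl-CoA synthetase, had 290, 312 and 311 CPM in Perk KO against 38.5, 48.9 and 46.7 CPM in WT (log2 2.81 ± 0.12). In bulk RNA, fewer cells of a type and less RNA per cell cannot be told apart.

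**Figure D3:**
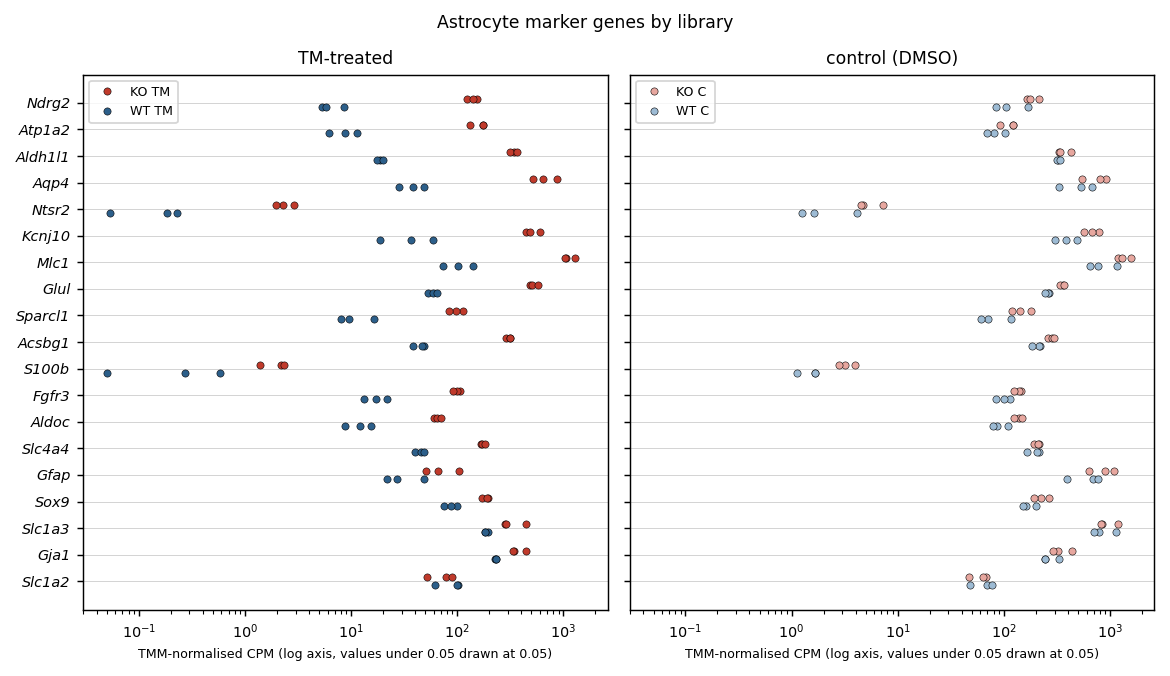
CPM (log axis) of the 19 tested astrocyte markers in each library (1 dot a library, n = 3 a group), Perk KO drawn just above WT in each row, with TM-treated cells in the left panel and controls in the right. Under TM 18 of the 19 genes were called higher in Perk KO, and in controls 6 of 19 were. With the replicate number as a block these counts were 18 under TM and 15 in controls.

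Markers of other cell types were set beside these. Oligodendrocyte lineage markers summed to 478 to 554 CPM in TM-treated Perk KO and 102 to 107 CPM in TM-treated WT, and 5 of 8 tested were higher and 0 lower. Of these, Olig1, a lineage transcription factor, had 296, 286 and 348 CPM in Perk KO against 39.7, 39.9 and 38 CPM in WT (log2 3.02 ± 0.11), Cnp, of myelin, differed by 2.84 ± 0.13 in log2, and Sox10, Mag, Mobp, Cldn11 and Gpr17 were below the filter. Ependymal and choroid markers summed to 641 to 744 CPM in Perk KO and 146 to 198 CPM in WT, with Foxj1 at 636, 560 and 518 CPM in Perk KO and 166, 185 and 132 CPM in WT (log2 1.87 ± 0.15). Neuron markers summed to 368 to 411 CPM in Perk KO and 266 to 373 CPM in WT, and of 10 tested 5 rose and 2 fell, Stmn2 rising by 1.29 in log2 and Tubb3 and Nefm falling by 1.76 and 1.89. Fibroblast and mural markers summed to 637 to 874 CPM in Perk KO and 380 to 498 CPM in WT, with 3 of 9 higher and 0 lower. Microglia markers were low, at 62.4 to 90.5 CPM in Perk KO and 27.2 to 67.0 CPM in WT, with 1 of 8 called (3 with the replicate block, 4 without replicate 1 of WT), and Cx3cr1, P2ry12, Tmem119, Itgam and Trem2 were below the filter. Endothelial markers summed to 20.4 to 26.8 CPM in Perk KO and 10.1 to 12.9 CPM in WT, and only Flt1 and Kdr passed the filter. The part of these markers in the other differences was not tested.

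Genes linked to reactive astrocytes split. Of 34 tested of 37 listed, 16 rose and 10 fell (median log2 0.66). Vim, an intermediate filament, had 5980, 5800 and 5980 CPM in TM-treated Perk KO against 2530, 2660 and 2670 CPM in TM-treated WT (log2 1.22 ± 0.11). Serping1, the C1 inhibitor, had 54.9, 50.1 and 47.6 CPM in Perk KO against 5.02, 3.7 and 4.65 CPM in WT (log2 3.55 ± 0.15), and Cd109, a membrane glycoprotein, differed by 2.23 ± 0.12. Ptx3, a secreted pentraxin, went the other way, with 93.7, 136 and 135 CPM in Perk KO against 936, 1070 and 902 CPM in WT (log2 −2.96 ± 0.17).

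Inflammatory and interferon genes were lower in TM-treated Perk KO, with more spread than the stress genes. Of 21 cytokine, chemokine and NF-kB genes 11 fell and 2 rose (median log2 −0.82). Il6, a cytokine of the acute phase, had 0.318, 1.18 and 1.65 CPM in Perk KO against 7.67, 21.9 and 30.9 CPM in WT (log2 −4.23 ± 0.62, edgeR adjusted p = 0.000456). Cxcl2, a neutrophil chemokine, had 9.58, 19 and 22.9 CPM in Perk KO against 60, 159 and 259 CPM in WT (log2 −3.18 ± 0.52). Cxcl1 and Cxcl10 fell by 2.03 and 2.04 on the log2 scale. Icam1, an adhesion molecule, rose, with 162, 195 and 182 CPM in Perk KO against 98.2, 111 and 131 CPM in WT (log2 0.70 ± 0.13), and so did Cxcl5 (log2 1.62 ± 0.43), which stayed under 4 CPM in each of the 6 libraries.

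Of 23 interferon-stimulated genes 17 fell and 3 rose in TM-treated Perk KO (median log2 −1.33). Mx1, an antiviral GTPase, had 0.529, 4.04 and 2.45 CPM in Perk KO against 19.3, 49.4 and 64 CPM in WT (log2 −4.21 ± 0.62). Isg15, a ubiquitin-like protein, had 36.1, 89.9 and 70.6 CPM in Perk KO against 201, 631 and 750 CPM in WT (log2 −2.97 ± 0.50). Rsad2 (viperin) had 19.1, 38.3 and 27.1 CPM in Perk KO against 66.3, 250 and 280 CPM in WT (log2 −2.78 ± 0.50), and Ifi44 fell by 3.50 on the log2 scale. In each of these 4 genes replicate 1 was the lowest library of both genotypes, so that same-numbered libraries moved together. The count of lower genes was 20 without replicate 1 of WT, and 11 without replicate 1 of Perk KO, without replicate 3 of Perk KO or without replicate 2 of WT. The 3 that rose were Irf1, a transcription factor of the interferon response (80.5, 118 and 97.8 CPM in Perk KO against 29.2, 57.3 and 67.3 CPM in WT, log2 0.99 ± 0.28), the immunoproteasome gene Psmb9 (log2 1.08 ± 0.21) and the peptide transporter gene Tap1 (log2 0.41 ± 0.09). Irf1 missed the threshold without replicate 2 of Perk KO (adjusted p = 0.052).

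**Figure D4:**
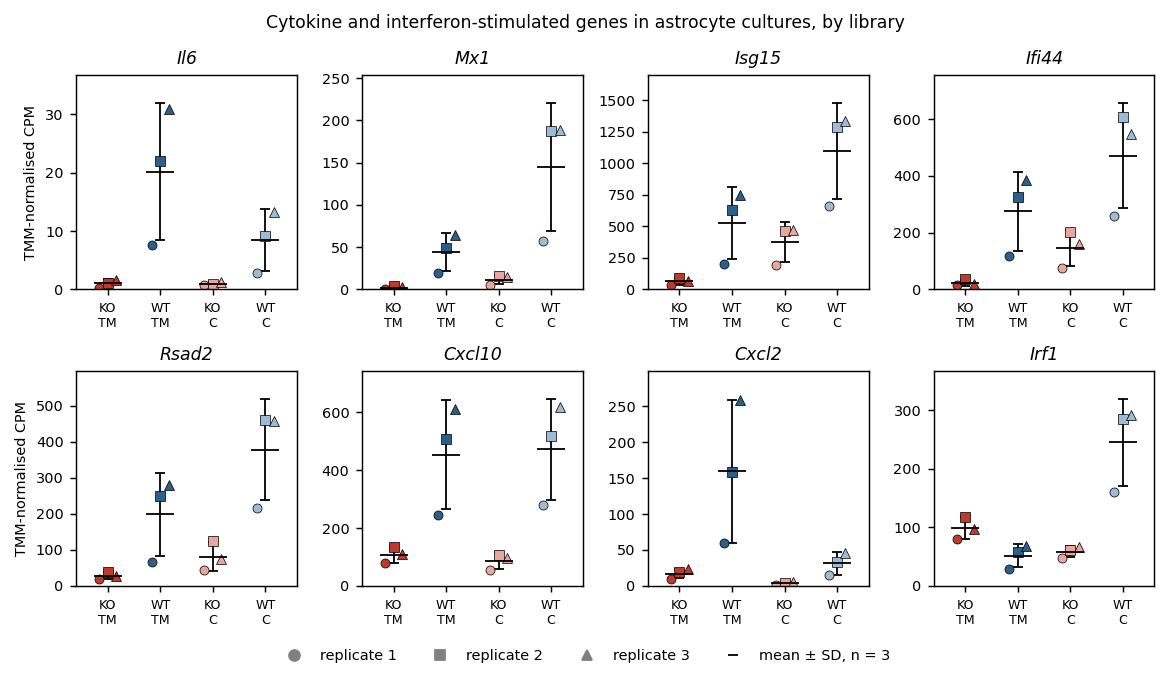
CPM (linear axis from 0) of Il6, Mx1, Isg15, Ifi44, Rsad2, Cxcl10, Cxcl2 and Irf1 in each astrocyte library, with TM-treated Perk KO, TM-treated WT, control Perk KO and control WT from left to right, markers by replicate number and mean ± SD (n = 3). Under TM all but Irf1 are lower in Perk KO.

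Oxidative stress genes were mixed, with 6 of 12 NRF2-linked genes lower and 3 higher (median log2 −0.22). Hmox1, the heme oxygenase, had 293, 433 and 652 CPM in TM-treated Perk KO against 1860, 2580 and 3660 CPM in TM-treated WT (log2 −2.52 ± 0.33), and Txnrd1, a thioredoxin reductase, fell by 1.67 on the log2 scale. Nqo1, a quinone reductase, had 13.4, 10.8 and 14.8 CPM in Perk KO against 3.75, 3.33 and 5.41 CPM in WT (log2 1.68 ± 0.23). The glutathione synthesis subunits parted, Gclc rising (log2 0.74 ± 0.12) and Gclm falling (log2 −0.71 ± 0.09). Among 17 autophagy genes 4 rose (23.5%) and 4 fell (23.5%), shares below the 32.1% and 31.2% of all genes tested. The cargo receptor Sqstm1 had 760, 908 and 1120 CPM in Perk KO against 2650, 3750 and 4980 CPM in WT (log2 −1.99 ± 0.24). Tfeb, a regulator of lysosomal genes, was higher in Perk KO (log2 2.72 ± 0.17). Among 14 BCL2 family genes tested 4 rose (28.6%) and 4 fell (28.6%), also below the shares of all genes, and Hrk fell most (log2 −2.61 ± 0.31). The BCL2 family counts were 2 higher and 2 lower without replicate 2 of Perk KO, 1 lower without its replicate 1, 7 lower without replicate 1 of WT and 2 lower without replicate 2 of WT.

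Glycolysis and cholesterol genes were mostly higher in TM-treated Perk KO. Of 17 glycolysis and lactate genes 13 rose and 1 fell (median log2 0.72), and Pfkm, a phosphofructokinase, had 189, 177 and 182 CPM in Perk KO against 42.2, 27.7 and 30.7 CPM in WT (log2 2.49 ± 0.16). Hk1, the constitutive hexokinase, rose (log2 1.45 ± 0.10) and Hk2, the inducible one, was the single gene that fell (log2 −2.26 ± 0.22). Of 23 cholesterol genes tested of 25 listed, 14 rose and 4 fell (median log2 0.51). Srebf2, the transcription factor of the pathway, had 175, 157 and 159 CPM in Perk KO against 73.8, 73.5 and 69 CPM in WT (log2 1.23 ± 0.10). Among those that fell were Mvd (log2 −2.08 ± 0.19), Lss (edgeR adjusted p = 0.000134) and Msmo1 (−0.69 ± 0.10), enzymes of the pathway.

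Of 24 cell cycle and DNA replication genes 17 rose and 4 fell in TM-treated Perk KO (median log2 0.84). Ccnd1 (cyclin D1) had 2010, 2410 and 2320 CPM in Perk KO against 744, 909 and 919 CPM in WT (log2 1.43 ± 0.13), and Rrm2, of nucleotide reduction, differed by 1.52 ± 0.15. The 4 that fell were Mcm7 (log2 −0.78 ± 0.10), Pcna (−0.67 ± 0.10), Tyms (−0.39 ± 0.14) and the cell cycle inhibitor Cdkn1a (−0.54 ± 0.17). Tyms missed the threshold with the GC correction (adjusted p = 0.0832) and without any single library but replicate 3 of WT (0.0618 to 0.0923). Cdkn1a missed it without replicate 1 or 2 of Perk KO or replicate 2 or 3 of WT (0.0588 to 0.0807). Without replicate 1 of Perk KO, replicate 2 of Perk KO or replicate 2 of WT the number that fell was 2. Of 14 cytosolic heat shock chaperones 7 rose and 1 fell, with Cryab at 269, 324 and 334 CPM in Perk KO against 60.2, 62.3 and 76.3 CPM in WT (log2 2.26 ± 0.14). Of 23 collagen, matrix and contractile genes 9 rose and 4 fell, Fn1 (fibronectin) having 171, 193 and 284 CPM in Perk KO against 538, 900 and 877 CPM in WT (log2 −1.80 ± 0.24) and Thbs1 (thrombospondin 1) 1060, 1140 and 1260 CPM in Perk KO against 583, 607 and 457 CPM in WT (log2 1.11 ± 0.13). Without replicate 2 of Perk KO the matrix genes that fell were 2.

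Ribosomal protein genes were lower. Of 79 cytosolic ribosomal protein genes 61 fell and 0 rose (median log2 −0.68), and Rpl12 had 169, 188 and 200 CPM in TM-treated Perk KO against 578, 529 and 563 CPM in TM-treated WT (log2 −1.54 ± 0.11). Counts of ribosomal protein genes are uncertain because of their many processed copies. Of 592 processed pseudogenes of any kind tested, 202 fell and 46 rose. The share that fell was near the 31.2% of all genes, and the share that rose was far below the 32.1% of all genes. Mitochondrially encoded genes went the other way from ribosomal protein genes, 11 of 13 being higher and 0 lower (median log2 1.02). Among them mt-Nd4 had 2440, 2190 and 1910 CPM in Perk KO against 1500, 756 and 583 CPM in WT (log2 1.25 ± 0.31), with the highest WT level in replicate 1. The count was 13 without replicate 1 of WT and 6 without replicate 2 of WT.

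The largest rises were ranked among protein-coding genes that were called, averaged 100 or more reads and had separate groups. They were Fgl2, Sult1a1, Igfbp5, Cnmd, Btbd17, Slc25a18, Vwa1, Camk2a, Sez6 and Fam107a, with log2 differences of 4.91 to 5.85. Igfbp5, a secreted binding protein of insulin-like growth factors, had the highest level per gene length of them, a deposited FPKM of 544 ± 40.2 in TM-treated Perk KO and 10.6 ± 0.905 in TM-treated WT (SD, n = 3). In CPM it had 3660, 3250 and 3280 CPM in TM-treated Perk KO against 70.9, 70.5 and 59.1 CPM in TM-treated WT (log2 5.71 ± 0.15, edgeR adjusted p = 9.83e-07). Slc25a18, a mitochondrial glutamate carrier, had 95.6, 70.1 and 65.4 CPM in Perk KO against 3.52, 1.23 and 1.95 CPM in WT. In control WT these genes were present, with Igfbp5 at 3150, 2740 and 2230 CPM and Slc25a18 at 110, 70 and 58 CPM. The largest falls were Il6, Mx1, Syt4, Mei4, Cyb5r2, Aldh1l2, Car6, Gsg1l, Cox6a2 and Lama1, with log2 differences of −4.23 to −3.68. Syt4, a synaptotagmin of vesicle traffic, had 7.15, 12.2 and 12.1 CPM in Perk KO against 193, 205 and 187 CPM in WT (log2 −4.18 ± 0.20). Lama1, a laminin chain, had 7.62, 6.4 and 9.07 CPM in Perk KO against 120, 89.5 and 94.7 CPM in WT (log2 −3.68 ± 0.18).

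The same contrast in control astrocytes asks how much of this was present without TM. There 2260 of 15196 genes differed (14.9%), 716 higher (4.71%) and 1544 lower (10.2%) in Perk KO, and with the replicate number as a block 5730 differed, 2753 higher and 2977 lower (48.0% higher, against 31.7% without the block). The count depended on single libraries: it was 658, 406 and 1211 without replicate 1, 2 or 3 of control Perk KO, and 4138, 50 and 472 without replicate 1, 2 or 3 of control WT. Of the PERK-ATF4-CHOP targets 18 of 22 were lower also in controls (median log2 −1.49), as were 12 of 16 amino acid synthesis genes and 17 of 20 synthetases. Atf4 had 92, 137 and 156 CPM in control Perk KO against 244, 358 and 414 CPM in control WT, and Chac1 had 12.1, 29.9 and 35.7 CPM in control Perk KO against 105, 170 and 198 CPM in control WT. Interferon-stimulated genes were lower in 20 of 23 (median log2 −1.36), with Mx1 at 5.27, 15.7 and 14.4 CPM in control Perk KO against 57.6, 187 and 189 CPM in control WT. Of the ER chaperones, by contrast, 3 were higher and 1 lower of 25, of the translocation and transport genes 0 of 25 were called, and of the astrocyte markers 6 of 19 were higher. With the replicate block the lower counts of the first 3 lists and of the interferon-stimulated genes were 21, 14, 18 and 23, whereas higher calls grew to 10 chaperones and 15 astrocyte markers, and 6 translocation and transport genes were higher and 3 lower.

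Whether the genotype difference itself differed between TM and control was tested as an interaction over the 12 astrocyte libraries. It passed for 5203 of 15114 genes (34.4%), with a more positive difference under TM in 2992 (19.8%) and a more negative one in 2211 (14.6%). With the replicate number as a block the interaction passed for 7449 genes, 3989 more positive and 3460 more negative. Counts with the block below are read against these. For the PERK-ATF4-CHOP targets it passed in 4 of 22, 3 of them more negative under TM (median −0.45 in log2), and with the replicate block 11 were more negative and 2 more positive. The difference was more negative under TM in 9 of 16 amino acid synthesis genes, 12 of 20 synthetases and 5 of 8 eIF2 and eIF2B subunits. With the replicate block these were 13, 18 and 5, and 1 amino acid synthesis gene was more positive. Of 12 amino acid transporters it was more negative in 2 (8 with the replicate block) and more positive in 1. For Chac1 the interaction was 0.00 ± 0.33, which leaves room for a difference in either direction within that error, and for Atf4 it was −0.86 ± 0.34 (edgeR adjusted p = 0.0647, and 0.000506 with the replicate block). The interaction was more negative under TM in 16 of 25 ER chaperones, 12 of 18 degradation genes and 14 of 25 translocation and transport genes. With the replicate block these were 18, 13 and 15. The largest negative values were those of Derl3 (−3.82), Acox2 (−2.96), Zcchc12 (−2.88), Creld2 (−2.87), Avil (−2.54) and Pdia4 (−2.38). Creld2 had 51.4, 40.4 and 49.3 CPM in control Perk KO against 35.3, 31.3 and 33.1 CPM in control WT, so without TM its small difference lay the other way.

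On the positive side the interaction passed in 14 of 19 astrocyte markers (median 2.30) and was led by Fgl2 (5.82), 4932443I19Rik (5.53), Sult1a1 (5.18), Igfbp5 (5.10), Crispld2 (4.82) and Cnmd (4.77) among the genes the naming rule gives. For Aldh1l1 it was 4.01 ± 0.17 (edgeR adjusted p = 1.14e-07). It was positive in 8 of 21 cytokine genes and negative in 0 (11 and 1 with the replicate block). Of 23 interferon-stimulated genes it was positive in 3, a share below the 19.8% of all genes, and negative in 1 (median −0.01). With the replicate block 4 were positive and 5 negative, so this list gave no common direction. The 3 positive without the block included Irf1 (3.01), with a mean of 58.6 CPM in control Perk KO against 245 CPM in control WT. That order was opposite to the one under TM. The interaction was positive in 11 of 24 cell cycle genes and 7 of 17 glycolysis genes (11 with the replicate block), and negative in 27 of 79 ribosomal protein genes (50 with the block). The interaction uses the TM libraries of the comparison above and is not independent of it.

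TM-treated neuron cultures gave the contrast in another culture type, and neurons below means these cultures. Astrocyte markers summed to 7990 to 10500 CPM in Perk KO neurons and 2040 to 2260 CPM in WT neurons. Neuron markers summed to 4300 to 4660 CPM in Perk KO neurons and 4220 to 4510 CPM in WT neurons. The part of astrocyte RNA in the neuron values was not tested. In the neuron libraries 6427 of 16026 genes differed (40.1%), 3314 higher (20.7%) and 3113 lower (19.4%) in Perk KO. Eif2ak3 had 9.85, 12 and 16 CPM in Perk KO neurons against 138, 135 and 147 CPM in WT neurons (log2 −3.44), and its difference between the cell types had an edgeR adjusted p of 0.0606 (0.0331 with the replicate block). The test of astrocytes against neurons passed for 4128 of 15872 genes (26.0%), 2023 more positive (12.7%) and 2105 more negative (13.3%) in astrocytes, with a median over all genes of −0.09 in log2. This balance moved with the scaling: with DESeq2 size factors in edgeR 2287 were more positive and 1641 more negative (58.2% positive, against 49.0%, median −0.01), and DESeq2 gave 2626 and 2063. With the replicate number as a block 5541 genes passed, 2526 more positive and 3015 more negative. CPM were normalised within each cell type, so levels are not compared between them.

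**Figure D5:**
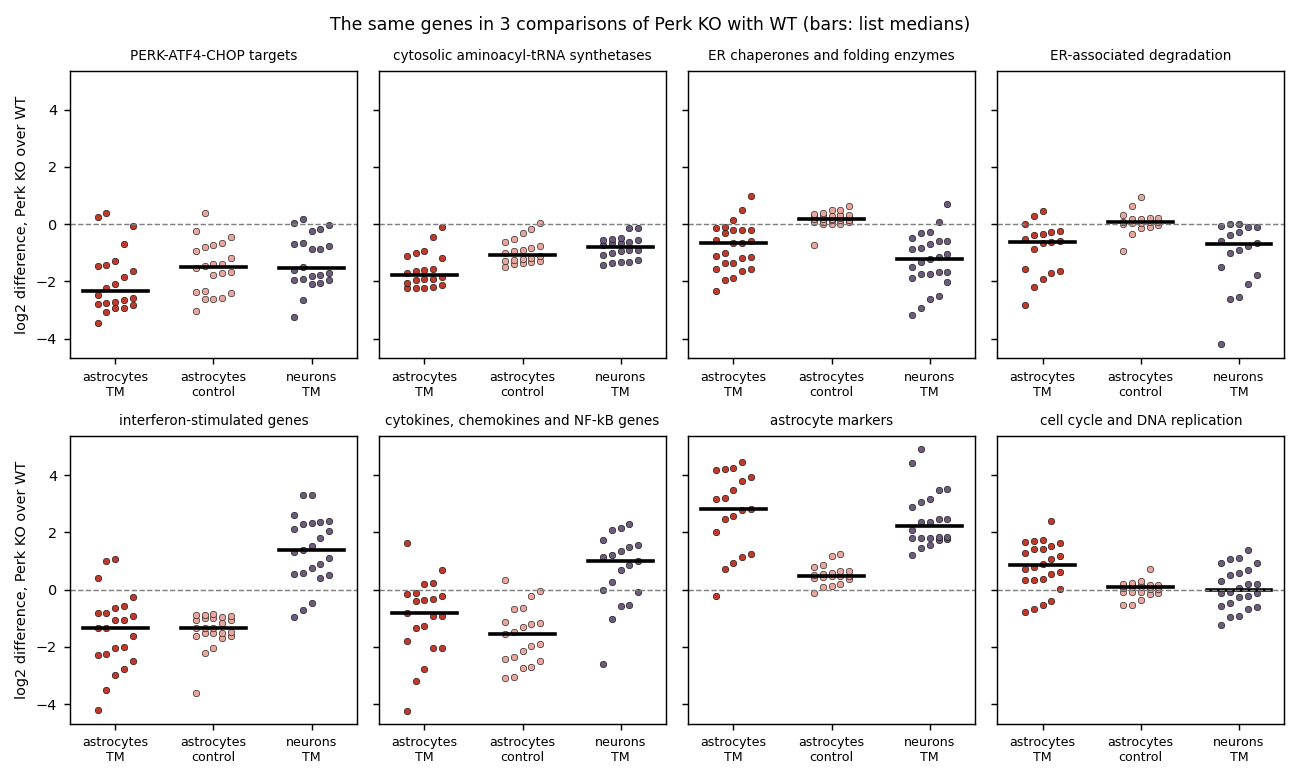
Log2 difference of Perk KO over WT for the members of 8 gene lists in TM-treated astrocytes, control astrocytes and TM-treated neurons (dots, with medians, n = 3 libraries a group). Interferon-stimulated genes have a median of −1.33 in TM-treated astrocytes, −1.36 in control astrocytes and 1.39 in TM-treated neurons.

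For most PERK pathway genes the fall was larger in the astrocyte cultures than in the neuron cultures. The cell type test was more negative in astrocytes for 13 of 22 PERK-ATF4-CHOP targets (more positive for 1), 11 of 16 amino acid synthesis genes, 9 of 13 transporters and 16 of 20 synthetases. Atf4 had a log2 difference of −2.22 in astrocytes and −0.85 in neurons (cell type difference −1.44 ± 0.24, edgeR adjusted p = 0.00106). Asns had −2.36 in astrocytes and −0.92 in neurons (−1.50 ± 0.25, adjusted p = 0.00128). Slc7a11, with −3.08 in astrocytes, had 152, 300 and 132 CPM in Perk KO neurons and 253, 297 and 132 CPM in WT neurons, which overlap (cell type difference −2.96 ± 0.47, adjusted p = 0.000882).

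Few ER chaperones differed between the cell types by this test. In neurons 22 of 25 fell and 1 rose (median log2 −1.23), and the cell type test passed in 4 of 25, all 4 more positive in astrocytes. For Hspa5 it was 0.39 ± 0.21 (edgeR adjusted p = 0.188), and for Sdf2l1, at −2.61 in neurons and −1.65 in astrocytes, 0.90 ± 0.25 (adjusted p = 0.0205). Astrocyte markers were higher in Perk KO also in the neuron cultures, in 21 of 22 genes, and the cell type test passed for 7 of 21 in the positive and 4 of 21 in the negative direction (7 in the negative with the replicate block). For Glul, at log2 3.20 in astrocytes and 3.48 in the neuron cultures, it was −0.34 ± 0.17 (adjusted p = 0.157).

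Interferon-stimulated genes gave opposite directions in the astrocyte and neuron cultures. In TM-treated neurons 17 of 23 were higher and 1 lower in Perk KO (median log2 1.39), and the cell type test was negative for 21 of 23. Rsad2 had 11.2, 9.73 and 12.4 CPM in Perk KO neurons against 1.11, 2.83 and 1.65 CPM in WT neurons (log2 2.61), beside −2.78 in astrocytes (cell type difference −5.45 ± 0.69, edgeR adjusted p = 0.000182). Ifit3b had 17.6, 16.7 and 16.8 CPM in Perk KO neurons against 0.222, 1.72 and 0.903 CPM in WT neurons, and 51.6, 63.1 and 54.8 CPM in TM-treated Perk KO astrocytes against 38.3, 121 and 152 CPM in TM-treated WT astrocytes, where replicate 1 of WT lay below the Perk KO libraries. Microglia markers were higher in Perk KO neurons for 6 of 8 tested, and their part in the result was not tested. Cytokine genes were higher in 10 and lower in 3 of 19 in neurons, and the cell type test was negative for 12 of 21.

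Among single genes, Camk2a, a kinase abundant in neurons, had 107, 81.8 and 71.4 CPM in TM-treated Perk KO astrocytes against 3.23, 3.21 and 1.95 CPM in TM-treated WT astrocytes (log2 5.00 ± 0.24), and 608, 500 and 420 CPM in Perk KO neurons against 520, 541 and 495 CPM in WT neurons, which overlap. Adra2c, an adrenergic receptor, had 4.34, 4.43 and 5.13 CPM in Perk KO astrocytes against 0.115, 0.0616 and 0.162 CPM in WT astrocytes, and 15.4, 9.56 and 11.6 CPM in Perk KO neurons against 19.9, 19.7 and 19.0 CPM in WT neurons (cell type difference 5.88 ± 0.37). The WT astrocyte values of Adra2c stand for very few reads, so the size of this difference is uncertain. Hist1h1d, a linker histone gene, had 2.49, 3.76 and 4.85 CPM in Perk KO astrocytes against 0.807, 1.48 and 1.68 CPM in WT astrocytes, and 1.14, 1.29 and 2.36 CPM in Perk KO neurons against 25.2, 19.7 and 19.5 CPM in WT neurons. Its 2 genotypes were thus in opposite order in the 2 cell types.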

How the data were processed

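Total RNA was made into libraries with an NEBNext Ultra kit and sequenced as paired ends on a NovaSeq instrument, per the labels' protocols. The submitters' processing notes name fastp for read filtering, HISAT2 for alignment, featureCounts for counting and the build GRCm38.p6. Which annotation release was counted is not stated in the labels. The deposited tables hold raw counts per gene, which were used for every test. They also hold the authors' log2 fold changes and adjusted p-values, from DESeq2 per the submitters' processing notes, and FPKM values computed by the authors, which were only used to compare levels between genes. Of the 8 deposited, 3 were used.

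Raw counts were tested in R 4.3.3 with the quasi-likelihood F test of edgeR 4.0.16 (limma 3.58.1), TMM normalisation, a minimum mean of 10 counts over the fit's libraries, and a Benjamini-Hochberg adjusted p under 0.05 over all genes tested. Each comparison of 2 groups used its own 6 libraries (4 residual degrees of freedom), and the interactions used 12 (8). An SE is the log2 difference divided by the square root of F. The fits were run on simulated counts with the same spread for every gene and no shared deviation of same-numbered libraries, unlike these data. That run checks the computation and not how the tests behave on these libraries. CPM were TMM-normalised over the 12 astrocyte libraries, and over the 6 neuron libraries on their own. Reads amplified by PCR are not independent molecules. The labels name no strand-specific counting, so reads of a gene and of one overlapping it on the other strand cannot be told apart, and genes with near-identical copies (ribosomal proteins, Hist1h1d, Ifit3b) are uncertain. Replicates of a group varied beyond counting noise (chi-square per gene of 7.06 to 70.6), and none was merged.

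Same-numbered libraries of the 2 groups compared deviated together, with correlations of 0.222 to 0.411 against −0.337 to 0.0719 for other numbers (control astrocytes 0.302 to 0.507, neurons 0.135 to 0.31), so the number pairs libraries as seen in the data, and a fit with it as a block was an alternative. The others were DESeq2 1.42.0, DESeq2 size factors, no filter, each library left out and, added after seeing the data, a GC correction over 20 bins of transcript GC content (GENCODE vM21).

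Genes named are 13 fixed stress genes, the 10 largest rises and falls (called, protein-coding, averaging 100 or more counts, groups separate), up to 4 members with the smallest p of each of 31 gene lists with any of 5 or fewer that moved against the rest, and the 6 largest values at each end of each interaction. Marker genes given as below the filter, and those given beside a count, were chosen after their values were seen. The members and lists were chosen with earlier results of these data known. A few members of these lists are not reported here by name.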

Additional observations from a re-analysis of the deposited data

Results flagged for a closer look

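The results below stood out because the genotype difference itself differed between TM and control astrocytes, or between TM-treated astrocytes and neurons, by the edgeR interaction test. The first passed for 5203 genes and the second for 4128.

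Between TM and control, the stress genes with a more negative Perk KO over WT difference under TM were Sdf2l1 (−2.32), Hsp90b1 (−1.72), Herpud1 (−1.31), Ddit3 (−1.22), Dnajb9 (−0.93), Hspa5 (−0.87) and Eif2ak3 itself (−0.75), all as log2 differences of differences. The value for Eif2ak3 missed the threshold without replicate 2 of control Perk KO (edgeR adjusted p = 0.0522). That for Ddit3 missed it when any 1 of 7 libraries was left out, with adjusted p from 0.0549 to 0.0786. The largest negative values, from Derl3 (−3.82), Acox2 (−2.96), Zcchc12 (−2.88), Creld2 (−2.87), Avil (−2.54) and Pdia4 (−2.38), and the largest positive ones, from Fgl2 (5.82), 4932443I19Rik (5.53), Sult1a1 (5.18), Igfbp5 (5.10), Crispld2 (4.82) and Cnmd (4.77), all passed the same test. Acox2, a peroxisomal oxidase, had 5.61, 6.51 and 3.48 CPM in TM-treated Perk KO against 66.3, 47.5 and 22.2 CPM in TM-treated WT. Crispld2 had 11.2, 8.76 and 9.35 CPM in TM-treated Perk KO against 0.577, 0.616 and 0.541 CPM in TM-treated WT, and 5.43, 4.25 and 3.54 CPM in control Perk KO against 6.88, 7.92 and 7.52 CPM in control WT.

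Between cell types, the difference was more negative in astrocytes for Asns (−1.50), Atf4 (−1.44), Ddit3 (−0.95), Chac1 (−0.91), Trib3 (−0.72) and Dnajb9 (−0.62), and more positive for Sdf2l1 (0.90). Chac1 missed the threshold when any 1 of 8 libraries was left out (edgeR adjusted p = 0.0549 to 0.083) and with DESeq2 size factors (0.0537). Dnajb9 missed it with the GC correction (edgeR adjusted p = 0.384), with that correction and the replicate block (0.372), without replicate 2 of TM-treated Perk KO astrocytes (0.0555) and without Perk KO neuron replicate 3 (0.0504). Single libraries left out also took Ddit3 (3 libraries, 0.0605 to 0.0803), Trib3 (2 libraries, 0.0589 and 0.0692) and Sdf2l1 (2 libraries, 0.0501 and 0.05) past it. The largest negative values were from Zbp1 (−6.09), Crhr1 (−5.50), Rsad2 (−5.45), Atp2b3 (−5.35), Gm4951 (−5.23) and Ifit3b (−5.10). Crhr1 and Atp2b3 were at 0 in every TM-treated Perk KO astrocyte library and at most 0.379 CPM in TM-treated WT, so their fitted values depend on the prior count and are no bound. The largest positive values were from Adra2c (5.88), Stum (5.57), Hist1h1d (5.17), St8sia1 (5.13), D130043K22Rik (5.02) and Camk2a (4.94). Stum had 1.75, 1.68 and 1.14 CPM in TM-treated Perk KO astrocytes, and 0.115, 0.0 and 0.0 CPM in TM-treated WT astrocytes, so its value too is no bound. The WT astrocyte levels of Adra2c, given above, were also very low, so the size of its value is uncertain.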

How the results depend on the processing

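The count of 9456 genes stayed between 8175 and 10248 under every alternative, with 10248 under the replicate block and 8175 to 9956 with single libraries left out. The log2 difference of Eif2ak3 stayed between −2.79 and −2.53 with single libraries left out. In control astrocytes the 2260 genes became 5730 with the replicate block and 5722 with the block and GC correction, and 50 to 4138 with single libraries left out. The interaction between TM and control passed for 4165 to 7449 genes, the neuron comparison for 4620 to 7850, and the cell type interaction for 3095 to 5541. Of the cell type calls 49.0% were more positive in astrocytes, and 64.4% without replicate 2 of TM-treated Perk KO. That test's median over all genes, −0.09, was 0.02 without this library and 0.04 without Perk KO neuron replicate 1. The balance of its calls, 2023 more positive and 2105 more negative, was the other way with DESeq2 (2626 and 2063) and DESeq2 size factors (2287 and 1641). No called difference of a named gene changed sign. Of 193 named genes tested 185 were called, and of these calls 0 were lost under the replicate block, 1 under DESeq2, 4 under the GC correction and 1 to 13 with a single library left out. The block added calls, among named values the interactions between TM and control of Atf4 (adjusted p = 0.000506), Xbp1 (0.000206) and Asns (0.0413). The causes were not tested. At 17.2 to 19.8 M reads a library, genes under a mean of 10 counts were not tested.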
